A study of Homo sapiens with 17 samples.

Results

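A set of 10 transcripts, each reported as a target of TDP43 in splicing, cryptic-exon repression or mRNA stability, was followed through an ac4C RNA-immunoprecipitation sequencing (acRIP-seq) series: ATG4B, GPSM2, PFKP, RANBP1, EPB41L4A, AGRN, POLDIP3, SORT1, GRN and HDAC6. They were chosen by name, by a rule that reads no measured value, though with earlier results of these data known. They are 10 of the 23368 genes in the count table. All 10 were found in the table, and all 10 passed the low-count filter in every one of the 9 comparisons. The series asked whether TDP43 contributes to N4-acetylcytidine (ac4C) on mRNA, a modification of cytidine written by the acetyltransferase NAT10. Poly(A) RNA of 293T cells, a human embryonic kidney line carrying the SV40 large T antigen, was sequenced in 17 libraries of 6 groups. WT cells gave 3 input libraries with no antibody, 3 libraries pulled down with an anti-ac4C antibody (IP) and 2 pulled down with control IgG. Cells labelled siTDP43, in which TARDBP (the gene of TDP43) was targeted by siRNA, gave 3 libraries of each kind. The labels name no control siRNA for the WT cells, and any difference in handling between WT and siTDP43 cells cannot be told apart from the knockdown. They also do not say whether replicates were separate cultures, so p-values measure the spread between these libraries, which may be technical.

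TDP43 is a nuclear RNA-binding protein that recognises UG-rich RNA. Bound in introns, it represses nearby splice sites, and its loss lets cryptic exons into mature mRNA; bound elsewhere, it affects exon choice, polyadenylation and mRNA stability. It is best known for its loss from the nucleus and its cytoplasmic aggregates in amyotrophic lateral sclerosis and frontotemporal dementia. The table holds 1 count per gene and library, so it measures the amount of each transcript and not which exons it carried. In a pull-down, a level also depends on how much of the transcript the antibody recovered.

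TG repeats, the DNA letters of UG repeats in RNA, are shown first because they are the sequence TDP43 binds. In the GRCh37 genome, on the strand of the gene, TGTGTG was counted without overlaps in introns, defined as the gaps between the exon blocks of the table. All 10 genes were above the median of 0.535 TGTGTG per kb over the 18848 genes with at least 1000 intron bases, though POLDIP3 (0.540 per kb) and GPSM2 (0.555 per kb) hardly so. AGRN held 4.95 per kb, at the 99.8 percentile, and RANBP1 3.41 per kb, at the 99.5 percentile. PFKP with 1.70 per kb and HDAC6 with 1.38 per kb followed, at the 97.1 and 95.5 percentiles. ATG4B (0.990 per kb), EPB41L4A (0.770 per kb), GRN (0.705 per kb) and SORT1 (0.605 per kb) lay between the 89.5 and 61.3 percentiles. The longest unbroken run of TG repeats in an intron, counted from its first T so that a G before it is left out, reached at least 30 bases in 3 of the 10 genes, against 26.0% of the 18848 genes. These counts describe the genome sequence, and TDP43 binding was not measured at any of the runs.

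The following 60-base stretches, each wholly inside an intron and written 5′ to 3′ on the strand of the gene, show the longest run in the 3 genes that reached 30 bases, in AGRN, which had the highest density, in HDAC6, whose run lies nearest to an exon, and in POLDIP3, whose run is among the shortest. Capitals mark the run.
RANBP1: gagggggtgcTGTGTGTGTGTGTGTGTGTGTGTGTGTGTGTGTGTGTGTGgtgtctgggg
EPB41L4A: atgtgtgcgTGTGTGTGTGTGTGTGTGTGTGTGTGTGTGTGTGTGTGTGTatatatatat
PFKP: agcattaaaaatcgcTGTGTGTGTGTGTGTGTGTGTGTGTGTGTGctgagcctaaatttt
AGRN: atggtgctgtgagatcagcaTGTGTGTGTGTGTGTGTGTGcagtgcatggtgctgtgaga
HDAC6: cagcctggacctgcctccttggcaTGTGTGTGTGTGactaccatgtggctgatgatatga
POLDIP3: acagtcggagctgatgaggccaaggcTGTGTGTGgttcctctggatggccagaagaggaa

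The RANBP1 stretch is chr22:20110237-20110296 on the plus strand, in intron 3 of 5, and its 40-base run begins 302 bases after the upstream exon. The EPB41L4A stretch is chr5:111681468-111681527 on the minus strand, in intron 1 of 22, where the run of 41 bases lies 38290 bases before the next exon. The PFKP stretch is chr10:3162547-3162606 on the plus strand, in intron 19 of 24, with a run of 30 bases that starts 325 bases after an exon. The AGRN stretch is chr1:966128-966187 on the plus strand, in intron 2 of 35, with a run of 20 bases. The HDAC6 stretch is chrX:48676871-48676930 on the plus strand, in intron 22 of 28, and its 12-base run begins 75 bases after an exon. The POLDIP3 stretch is chr22:42993057-42993116 on the minus strand, in intron 4 of 8, with a run of 8 bases against a median longest run of 11 over the 18848 genes. ATG4B and SORT1 had runs of 17 bases, GPSM2 of 15 and GRN of 6.

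Exons were searched on the same strand for the same repeat and for TGTGCG, a variant of it, and also for the word TCCCAGCT. The repeat TGTGTG stood in exons of 7 of the 10 genes, against 58.1% of the 22811 genes with exon sequence. TGTGCG stood in exons of 5 of the 10, against 26.2% of genes, with 7 copies in AGRN, 2 each in PFKP and GRN, and 1 each in EPB41L4A and SORT1. TCCCAGCT was in none of the 10 and in 16.8% of genes. The shares over all genes were not matched for exon length or GC content, so they do not measure enrichment. Both GRN copies of TGTGCG lie in untranslated sequence of the last of its 13 exons, on the plus strand. The first of them follows directly on a TG run and overlaps it. The 30 bases around it, chr17:42430421-42430450, are shown with only this first copy in capitals. The second copy also lies within them, in small letters.
GRN: ggtgtttgtgtgTGTGCGcgtgtgcgtttc

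**Figure D1:**
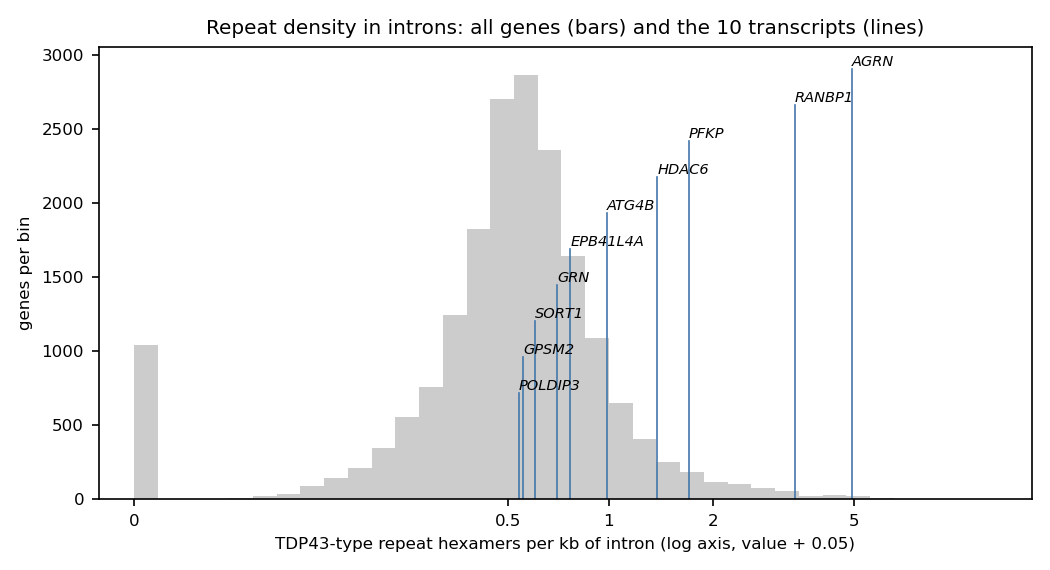
TGTGTG per kb of intron on a log axis for the 10 genes, as labelled marks over the distribution of the 18848 genes with at least 1000 intron bases. All 10 lie above the median of 0.535 per kb, and AGRN and RANBP1 lie beyond the 99 percentile.

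Library totals ranged from 24542434 to 36583436 counts in the inputs, 8610070 to 21066215 in the IP libraries, 9022250 to 9466855 in WT IgG and only 3013989 to 3436811 in siTDP43 IgG, so the last group is the least precise. TARDBP itself was read at 150, 157 and 151 counts per 1000000 library counts (CPM, with library sizes scaled by TMM) in the WT inputs and at 98.6, 102 and 106 CPM in the siTDP43 inputs. The groups did not overlap, and the knockdown level was 67.2% of WT (log2 change -0.57, SE 0.045, adjusted p = 6.55e-13 by edgeR's quasi-likelihood test). Of 6 genes taken as markers of HEK293T cells, NEFM, KRT8, KRT18 and VIM had at least 947 counts in every input library, while PAX2 and LHX1 had from 2 to 54. The 5 that were tested were all called lower in the siTDP43 inputs, where the share of all genes called lower was 40.6%. KRT8 fell the most (193 to 39.1 CPM, log2 change -2.30). Of markers of other cells, PTPRC and COL1A2 had 0 counts in every input, and CD3E and ALB at most 6. Whether the differences of the HEK293T markers have a part in the values below was not tested.

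In input RNA, AGRN and RANBP1 had the largest differences of the 10 between siTDP43 and WT cells. AGRN fell to 17.5% of its WT level and RANBP1 to 46.9%, while POLDIP3, GPSM2 and HDAC6 fell less. SORT1 and GRN passed the test as slightly higher. Thus 2 of the 10 were called higher (edgeR quasi-likelihood test, Benjamini-Hochberg adjusted p under 0.05 over 14036 genes), where the share of all genes was 38.6%, and 5 were called lower, where the share of all genes was 40.6%. The median log2 change was -0.11 over the 10 and -0.049 over all genes tested. Most genes tested were called in this comparison, and the counts of the 10 are read against that background.

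RANBP1 is a cytoplasmic Ran-binding protein that assists GTP hydrolysis by Ran at the end of nuclear export. Its input levels were 517, 587 and 560 CPM in WT and 260.0, 255 and 263 CPM in siTDP43 cells, 2.13-fold lower with no overlap between the groups (log2 change -1.09, SE 0.042, adjusted p = 1.07e-20). POLDIP3, also called SKAR, links newly spliced mRNA to S6 kinase signalling and translation. POLDIP3 was at 217, 222 and 217 CPM in the WT inputs and at 156, 155 and 144 CPM in the siTDP43 inputs, again without overlap (log2 change -0.52, SE 0.043, adjusted p = 2.05e-12).

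AGRN encodes agrin, a heparan sulfate proteoglycan that organises the neuromuscular junction. Its input libraries held 290, 321 and 318 counts in WT (9.59, 8.17 and 9.06 CPM) and 64, 31 and 38 counts in siTDP43 cells (2.02, 1.23 and 1.35 CPM). Every WT library was above every siTDP43 library, by 5.72-fold in the fit (log2 change -2.52, SE 0.19, adjusted p = 2.39e-13). AGRN exons are 67.6% G and C, at the 98.1 percentile of genes, and with the trend of each library on GC content removed the log2 change was -1.22 (adjusted p = 6.1e-07). GPSM2, an adaptor that ties the mitotic spindle to the cell cortex, fell from 15.7, 17.8 and 18.2 CPM to 11.8, 11.96 and 14.6 CPM (log2 change -0.42, SE 0.10, adjusted p = 0.000555). GPSM2 exons overlap those of CLCC1 on the other strand by 1444 bases, and the strand setting of the counting was not given in the sources used here, so reads of the pair may not be separated there.

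HDAC6 is a cytoplasmic deacetylase of tubulin that carries ubiquitinated protein to the aggresome. It was at 31.3, 27.9 and 31.4 CPM in the WT inputs and at 27.7, 24.9 and 22.8 CPM in the siTDP43 inputs, which barely separates the groups (log2 change -0.26, SE 0.081, adjusted p = 0.00496). With the GC trend removed the sign of the HDAC6 difference turned, to 0.081 (adjusted p = 0.321). GRN encodes progranulin, a secreted protein that is processed in lysosomes, and SORT1 encodes sortilin, its receptor for uptake. GRN was at 112, 101 and 99.8 CPM in WT and at 125, 108 and 112 CPM in siTDP43 inputs (log2 change 0.15, SE 0.054, adjusted p = 0.0134). SORT1 was at 10.02, 12.6 and 10.3 CPM in WT and at 14.3, 13.5 and 12.1 CPM in siTDP43 inputs (log2 change 0.28, SE 0.12, adjusted p = 0.0292). For both genes the groups overlapped, and both calls were lost with scaling by total counts (log2 changes 0.056 and 0.19). The GRN call was also lost without WT input replicate 2 or 3 or siTDP43 input replicate 1 (0.12, 0.12 and 0.090), and the SORT1 call without WT input replicate 1 or 3 or siTDP43 input replicate 1 or 2 (0.22, 0.23, 0.22 and 0.27).

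ATG4B, the protease that trims LC3 and GABARAP proteins for autophagy, was at 35.7 to 38.4 CPM in WT and 35.9 to 39.4 CPM in siTDP43 inputs, with no call (log2 change 0.058, SE 0.067, adjusted p = 0.429). PFKP, the platelet isoform of the glycolytic enzyme phosphofructokinase, was at 58.7 to 62.8 and 57.0 to 70.4 CPM, also with no call (log2 change 0.044, SE 0.064, adjusted p = 0.534). Both passed as higher once the GC trend was removed, at 0.50 and 0.44. EPB41L4A, a member of the band 4.1 family that joins membranes to the cytoskeleton, was the rarest of the 10 in WT inputs, at 2.82 to 3.08 CPM, and stood at 3.06 to 4.40 CPM in siTDP43 inputs (log2 change 0.37, SE 0.20, adjusted p = 0.0975). Without siTDP43 input replicate 1, the EPB41L4A difference passed as higher (0.52, adjusted p = 0.0252).

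**Figure D2:**
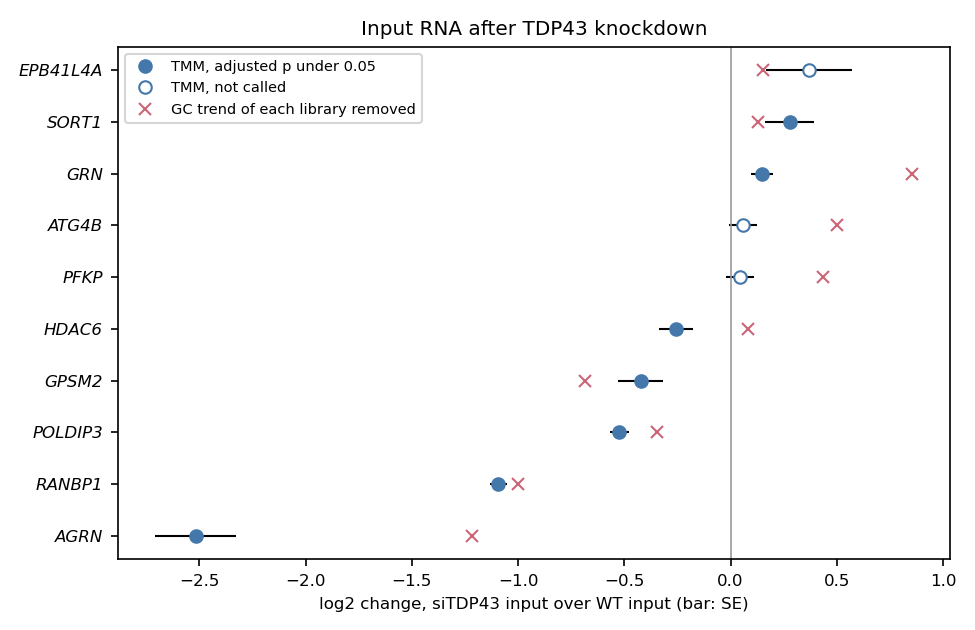
Log2 change of each of the 10 transcripts in siTDP43 against WT input (bars: SE of the fit), with the main edgeR fit beside the fit with the GC trend removed. AGRN, RANBP1, POLDIP3 and GPSM2 lie below 0 in both fits, while HDAC6 lies below 0 in the main fit (-0.26) and at 0.081 with the trend removed.

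Levels can be compared between genes only per exon length. On CPM per kb of exon in the WT inputs, RANBP1 was the most abundant at 628 ± 39.8 (SD, n = 3), followed by POLDIP3 at 63.7 ± 0.849 and GRN at 45.2 ± 2.92. PFKP (20.4 ± 0.697), ATG4B (12.7 ± 0.508), HDAC6 (7.37 ± 0.481) and GPSM2 (5.68 ± 0.427) came next. SORT1 (1.495 ± 0.193), AGRN (1.22 ± 0.0981) and EPB41L4A (0.633 ± 0.0292) closed the order, and no neighbours in it overlapped over the 3 libraries. In the siTDP43 inputs the order was the same but for 2 exchanges. GRN (49.8 ± 3.77) stood above POLDIP3 (44.1 ± 2.01), and EPB41L4A (0.817 ± 0.148) stood above AGRN (0.209 ± 0.0582).

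**Figure D3:**
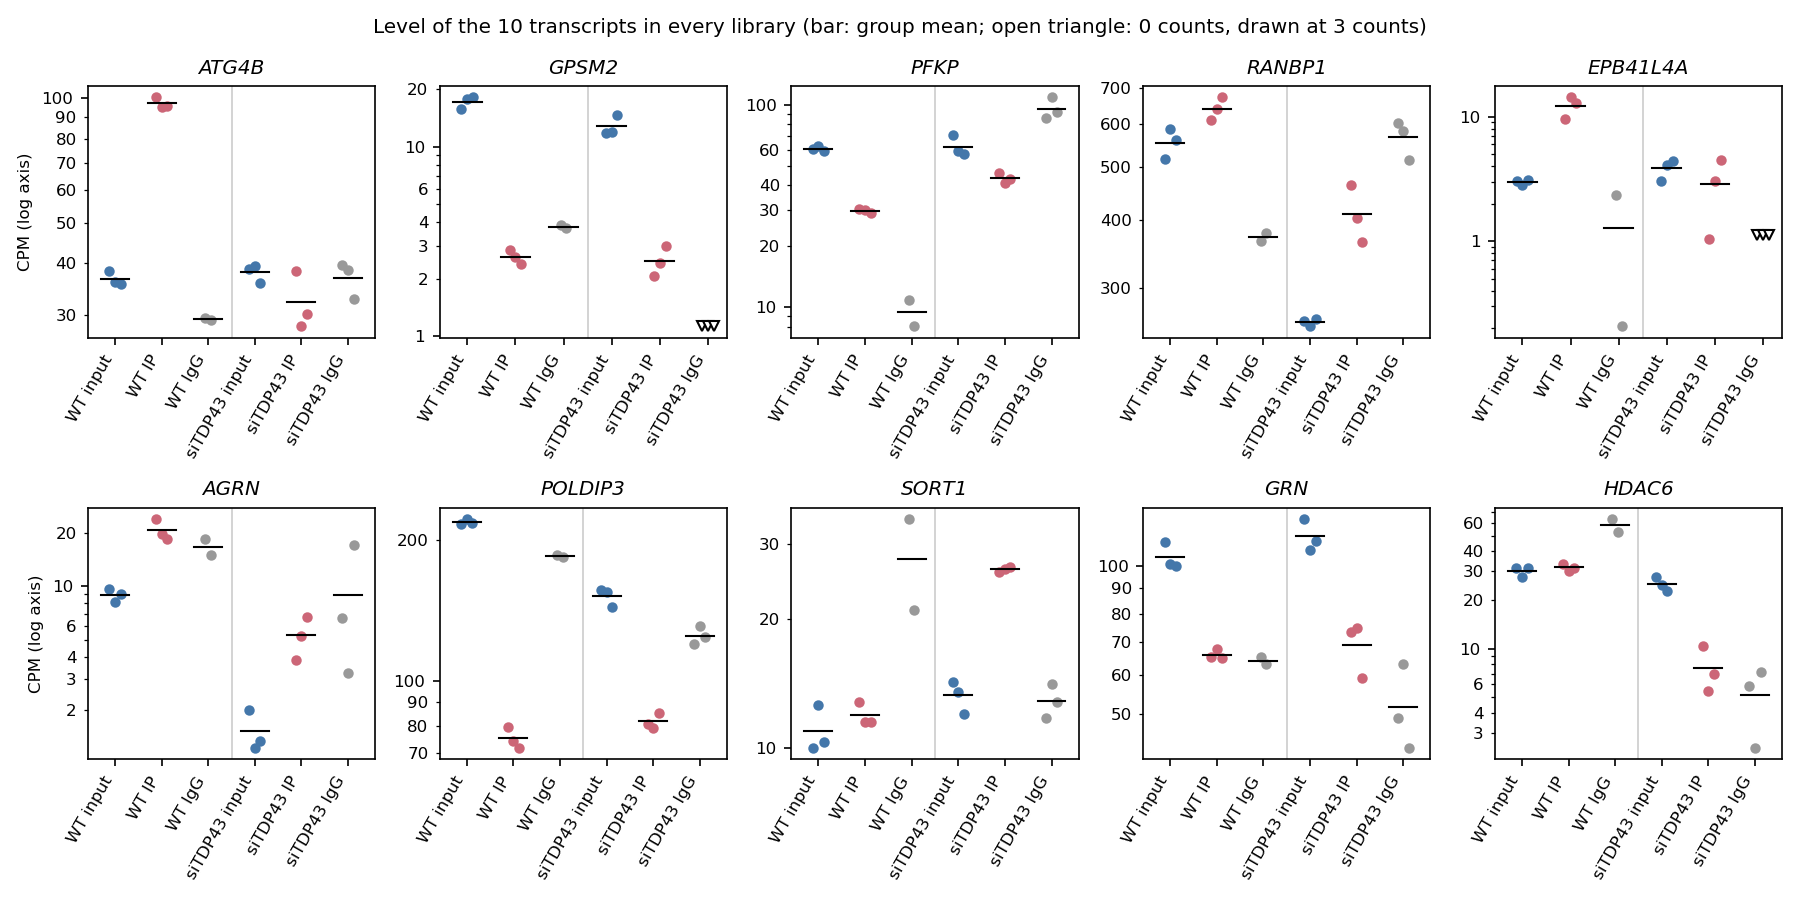
CPM in every library (log axis, a separate scale for each gene) of the 10 transcripts in the 6 groups. Points are libraries, bars are group means, and open triangles are libraries with 0 counts drawn at 3 counts. ATG4B stands at 95.5 to 101 CPM in WT IP and at 28.2 to 38.4 CPM in siTDP43 IP, while GPSM2 and EPB41L4A have no counts in siTDP43 IgG.

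In WT cells, ATG4B and EPB41L4A were the members over 2-fold above both input and IgG in the anti-ac4C pull-down. ATG4B reached 101, 95.5 and 95.7 CPM in WT IP, against 38.4, 36.0 and 35.7 CPM in input and 29.6 and 29.1 CPM in IgG. Every IP library exceeded every library of the other groups. The fit gave a log2 difference from input of 1.41 (SE 0.066, adjusted p = 1.12e-15). The log2 difference from IgG was 1.71 (SE 0.087, adjusted p = 1.69e-14). EPB41L4A was at 9.59, 14.3 and 12.9 CPM in WT IP against 3.04, 2.82 and 3.08 CPM in input. Its WT IgG libraries disagreed, with 24 counts in the first (2.33 CPM) and 2 in the second (0.206 CPM). Its log2 difference from input was 2.05 (SE 0.24, adjusted p = 2.78e-08). From IgG it was 3.22 (SE 0.39, adjusted p = 6.86e-08), which became 5.85 without WT IgG replicate 1 and 2.38 without WT IgG replicate 2. A transcript is called ac4C(+) here when IP exceeds input by over 2-fold and also IgG by over 2-fold, with adjusted p under 0.05 in each. By this rule 2 of the 10 were ac4C(+) in WT cells, against 15.6% of all genes tested. RANBP1 was above both backgrounds by less than 2-fold. It was at 611, 640.0 and 672 CPM in WT IP and at 366 and 378 CPM in IgG, with no overlap between IP and either background (log2 difference from input 0.22, SE 0.052, adjusted p = 0.000579, and from IgG 0.77, SE 0.061, adjusted p = 6.05e-11). At an unadjusted p under 0.05 in both tests and with no limit on the fold, 3 of the 10 (ATG4B, EPB41L4A and RANBP1) were above both backgrounds, against 26.0% of all genes. With the GC trend removed, ATG4B fell short of 2-fold, at log2 differences of 0.78 over input and 0.79 over IgG.

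Against WT input, 3 of the 10 were called higher in WT IP (30.2% of all genes) and 3 lower (27.3% of all genes). The median log2 difference was 0.10 over the 10 and 0.013 over all 14751 genes tested. AGRN was the remaining gene called higher, at 23.9, 19.7 and 18.4 CPM in IP (log2 difference 1.22, SE 0.13, adjusted p = 5.63e-09). It was not separated from IgG by the test, where it stood at 18.4 and 15.0 CPM (0.29, SE 0.15, adjusted p = 0.0932). With the GC trend removed AGRN was below input in WT IP, at -0.96. GPSM2 was depleted, at 2.85, 2.61 and 2.39 CPM in IP (log2 difference -2.71, SE 0.16, adjusted p = 8.58e-14). POLDIP3 was at 79.5, 74.4 and 71.7 CPM in IP, 2.89-fold below input (-1.53, SE 0.055, adjusted p = 5.81e-18). PFKP was at 30.4, 30.03 and 29.2 CPM in IP, close to the 2-fold limit (-1.01, SE 0.082, adjusted p = 4.53e-11). The PFKP call was lost without WT input replicate 2 (-0.98) or WT IP replicate 3 (-0.99) and with scaling by total counts (-0.91).

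Against WT IgG, 3 of the 10 were called higher in IP (35.2% of all genes) and 2 lower (17.8% of all genes), with medians of 0.15 over the 10 and 0.29 over all genes. PFKP joined ATG4B and EPB41L4A, with an IgG level of 10.9 and 8.03 CPM (log2 difference 1.64, SE 0.13, adjusted p = 4.14e-11, and 0.76 with the GC trend removed). POLDIP3 was lower in IP than in IgG, where it was at 186 and 184 CPM (-1.32, SE 0.062, adjusted p = 4.19e-15). SORT1 was at 12.9, 11.5 and 11.5 CPM in IP and at 34.3 and 21.0 CPM in IgG (-1.23, SE 0.17, adjusted p = 6.31e-07). Without WT IgG replicate 1 the SORT1 difference was under 2-fold (-0.83).

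IgG itself recovered the 10 unevenly in WT cells. Compared with input, 1 of the 10 was called higher in WT IgG (24.4% of all genes) and 3 lower (36.6% of all genes), with medians of -0.42 over the 10 and -0.39 over all genes. SORT1 was higher (log2 difference 1.36, SE 0.17, adjusted p = 9.07e-08), a call lost without WT IgG replicate 1 (0.95). PFKP (-2.65, SE 0.12, adjusted p = 1.4e-15) and GPSM2 (-2.16, SE 0.20, adjusted p = 7.86e-10) were lower. GPSM2 was thus low in both pull-downs, at 3.88 and 3.70 CPM in IgG. EPB41L4A was lower at -1.17 (SE 0.43, adjusted p = 0.016), which became -0.34 without WT IgG replicate 2 (adjusted p = 0.396) and -3.80 without WT IgG replicate 1. HDAC6 stood at 63.4 and 52.5 CPM in IgG, just short of 2-fold over input (0.97), and was called higher without WT IgG replicate 2 (1.09), as was AGRN (0.94 with both libraries, 1.06 without that one).

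In siTDP43 cells none of the 10 was ac4C(+), against 10.3% of all genes tested. By edgeR at an unadjusted p under 0.05 with no limit on the fold, 1 of the 10, SORT1, was above both backgrounds, against 17.6% of all genes (3 of the 10 in WT), and DESeq2 gave 0 by the ac4C(+) rule. Leaving out siTDP43 IgG replicate 2 made SORT1 ac4C(+) (log2 difference of 1.02 over IgG). ATG4B, ac4C(+) in WT, was at 38.4, 28.2 and 30.1 CPM in siTDP43 IP, at 38.9, 39.4 and 35.9 CPM in input and at 39.6, 38.4 and 32.7 CPM in IgG. The 3 groups overlapped, and neither the log2 difference from input (-0.079, SE 0.13, adjusted p = 0.585) nor that from IgG (-0.26, SE 0.15, adjusted p = 0.13) passed. EPB41L4A was read at 14, 30 and 36 counts in siTDP43 IP (1.04, 3.04 and 4.48 CPM), which overlapped its input (log2 difference -0.32, SE 0.43, adjusted p = 0.497).

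Against siTDP43 input, 2 of the 10 were called higher in IP (26.8% of all genes) and 2 lower (25.4% of all genes), with medians of -0.35 over the 10 and -0.092 over all 12746 genes. SORT1 was at 25.9, 26.2 and 26.5 CPM in siTDP43 IP, more than any siTDP43 input library (log2 difference 1.13, SE 0.155, adjusted p = 8.26e-07). AGRN was at 3.86, 5.27 and 6.73 CPM in IP (1.91, SE 0.43, adjusted p = 0.00034), and at -0.40 with the GC trend removed. HDAC6 fell to 10.4, 5.47 and 6.98 CPM in IP, from 140, 54 and 56 counts (-1.54, SE 0.23, adjusted p = 2.04e-06). GPSM2 was again depleted, at 2.08, 2.43 and 2.99 CPM (-2.22, SE 0.28, adjusted p = 4.76e-07).

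The siTDP43 IgG libraries were shallow, and GPSM2 and EPB41L4A had 0 counts in all 3. A value of 3 counts per library would be a level of up to 1.21 CPM. Folds against them are computed with 3 counts set in each of these libraries. A count here appears to be a mate and not a fragment, so 3 counts stand for fewer fragments than 3. These folds therefore do not cover the counting error of 0 fragments or the spread between libraries, and are not strict lower limits. Against IgG, 2 of the 10 were called higher in siTDP43 IP (34.0% of all genes) and 1 lower (15.0% of all genes). The 2 were GPSM2 (adjusted p = 0.000121) and EPB41L4A (adjusted p = 0.000758). With IgG set at 3 counts, GPSM2 was 2.22-fold and EPB41L4A 2.53-fold higher in mean level. The first EPB41L4A IP library, at 1.04 CPM, was itself below 1.21 CPM. A difference over 2-fold is thus not secured for either gene. PFKP was lower in IP, at 45.7, 40.9 and 43.1 CPM against 85.9, 108 and 91.4 CPM in IgG (log2 difference -1.21, SE 0.12, adjusted p = 1.62e-08). Without siTDP43 IgG replicate 2, AGRN was also called lower (-1.25, adjusted p = 0.0135).

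Between IgG and input of siTDP43 cells, 2 of the 10 were called higher in IgG (24.7% of all genes) and 3 lower (41.0% of all genes). RANBP1 was at 604, 583 and 517 CPM in IgG (log2 difference 1.36, SE 0.077, adjusted p = 2.68e-13), and at 0.81, short of the 2-fold limit, with scaling by total counts. AGRN was higher at 2.78 (SE 0.47, adjusted p = 1.17e-05), from only 18, 8 and 48 counts, and at 1.91 without siTDP43 IgG replicate 3. With the GC trend removed the AGRN value was 0.66 (adjusted p = 0.185). HDAC6 was lower, at 5.87, 2.43 and 7.12 CPM from only 16, 6 and 20 counts (-2.04, SE 0.31, adjusted p = 2.61e-06). GPSM2 (adjusted p = 1.74e-08) and EPB41L4A (adjusted p = 0.000205) were also lower, by 11.4-fold and 3.41-fold with IgG set at 3 counts. Without siTDP43 IgG replicate 2, GRN was called lower too (-1.11).

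**Figure D4:**
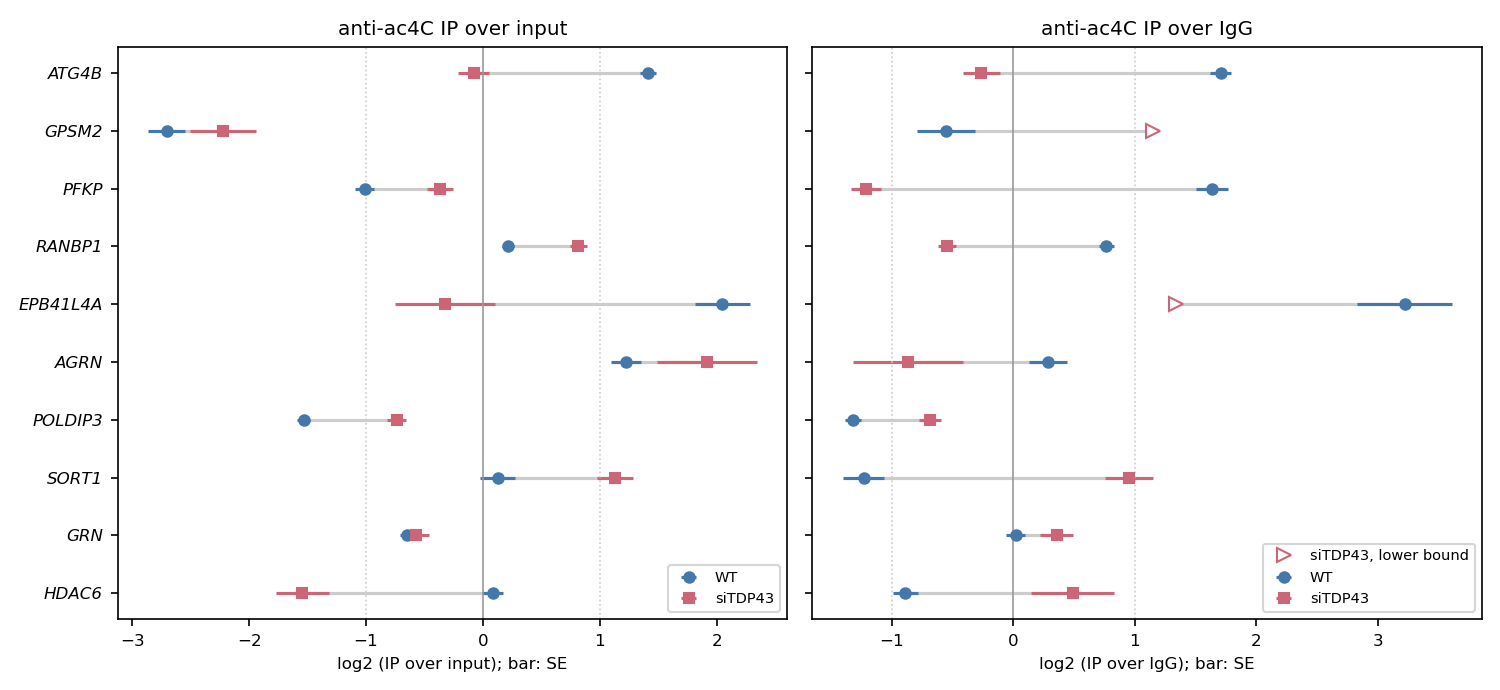
Log2 difference of IP over input and of IP over IgG for the 10 transcripts in WT and siTDP43 cells (bars: SE of the fit). ATG4B goes from 1.41 to -0.079 over input and from 1.71 to -0.26 over IgG. GPSM2 and EPB41L4A over siTDP43 IgG, labelled lower bound, are drawn at values computed with IgG at 3 counts per library.

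Whether the recovery of a transcript relative to the other genes differed between the genotypes was tested by the interaction in 1 fit of all 17 libraries. Scaling each library by TMM removes a change common to most genes, so absolute recovery was not measured. The 2 interactions share the IP libraries and are therefore not independent of each other. For the change of IP over input from WT to siTDP43 cells, 4 of the 10 were called higher (31.5% of all 15165 genes) and 3 lower (36.3% of all genes), with medians of 0.39 over the 10 and -0.19 over all genes. For the change of IP over IgG, 5 were called higher (34.9% of all genes) and 4 lower (25.9% of all genes), and the median over all genes was 0.24. ATG4B was lower by both measures. Its log2 change was -1.63 relative to input (SE 0.14, adjusted p = 1.43e-12). Relative to IgG it was -1.91 (SE 0.18, adjusted p = 1.2e-11). EPB41L4A was lower over input (-2.56, SE 0.48, adjusted p = 1.91e-05). Its change over IgG did not pass (adjusted p = 0.243), and the absence of counts in siTDP43 IgG leaves no direction for it.

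Among the lysosomal and aggresome genes, HDAC6 was lower relative to input (-1.76, SE 0.22, adjusted p = 6.89e-09). Relative to IgG it was higher (1.44, SE 0.34, adjusted p = 0.000275). Its IgG level was 57.9 ± 7.74 CPM (SD, n = 2) in WT and 5.14 ± 2.43 CPM (SD, n = 3) in siTDP43 cells. The siTDP43 IgG level rests on only 16, 6 and 20 counts. SORT1 was higher relative to input (0.86, SE 0.22, adjusted p = 0.00089) and more so relative to IgG (2.24, SE 0.27, adjusted p = 4.21e-09). SORT1 IP was at 11.5 to 12.9 CPM in WT and 25.9 to 26.5 CPM in siTDP43 cells, and SORT1 IgG at 21.0 to 34.3 and 11.7 to 14.2 CPM, so the groups separated in opposite directions. GRN was not called over input (-0.067, SE 0.13, adjusted p = 0.677). Over IgG it passed narrowly (0.39, SE 0.16, adjusted p = 0.0331). The GRN call was lost without WT IP replicate 1 or 3, WT IgG replicate 1, siTDP43 IP replicate 1 or 2, or siTDP43 IgG replicate 1 or 3, with values from 0.27 to 0.39, and with DESeq2 (0.17).

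RANBP1 and POLDIP3 were higher relative to input, by 0.45 (SE 0.10, adjusted p = 9.24e-05) for the first and 0.65 (SE 0.10, adjusted p = 3.22e-07) for the second. RANBP1 went from 555 ± 35.2 to 259 ± 4.39 CPM in input and from 641 ± 30.4 to 410 ± 50.4 CPM in IP (SD, n = 3). POLDIP3 IP levels were close, at 75.2 ± 3.96 CPM in WT and 81.8 ± 3.18 CPM in siTDP43 cells (SD, n = 3). Over IgG they parted, RANBP1 lower (-1.25, SE 0.11, adjusted p = 5.71e-13) and POLDIP3 higher (0.69, SE 0.11, adjusted p = 1.02e-06). PFKP was higher relative to input (0.50, SE 0.14, adjusted p = 0.0027) but lower relative to IgG (-2.79, SE 0.19, adjusted p = 1.31e-15). Its IgG level was 9.44 ± 2.00 CPM in WT (SD, n = 2) and 95.3 ± 11.7 CPM in siTDP43 cells (SD, n = 3). The over-input calls of RANBP1 and PFKP were lost with scaling by total counts (0.16 and 0.20).

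AGRN was not called relative to input (0.52, SE 0.37, adjusted p = 0.221) but passed as lower relative to IgG (-1.14, SE 0.43, adjusted p = 0.0211). The AGRN call was lost without WT IP replicate 1 (-1.02), WT IgG replicate 2 (-1.001), siTDP43 IP replicate 1 (-0.93) or siTDP43 IgG replicate 3 (-0.26), and with the GC trend removed (-0.22). GPSM2 was not called over input (0.33, SE 0.32, adjusted p = 0.368). Over IgG it was higher (adjusted p = 4.74e-06), by a log2 of 1.68 with siTDP43 IgG set at 3 counts per library.

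Genes related to the 10 by pathway or family were counted in the inputs, against the same shares of 38.6% higher and 40.6% lower. Of other reported TDP43 targets, 5 were called higher and 5 lower of 13 tested, HDGFRP2 the most changed (log2 change -2.95, SE 0.23). Of the ATG4 proteases and their LC3 and GABARAP substrates, 3 were higher and 4 lower of 7, led by ATG4D (-2.14, SE 0.22). Of the Ran cycle, 4 were higher and 3 lower of 8, led by the nuclear pore protein RANBP2 (-1.09, SE 0.092). Of the phosphofructokinases other than PFKP, 5 of 6 were higher and the other did not pass, led by PFKFB3 (1.37, SE 0.081). Of genes around progranulin and sortilin, 2 were higher and 5 lower of 8, led by SORCS2 (-3.86, SE 0.58).

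Of genes of the HDAC6 and aggresome list, 5 were higher and 2 lower of 7, led by the segregase VCP (2.03, SE 0.041). Of partners of GPSM2 in spindle orientation, 4 were higher and 2 lower of 6, led by its paralog GPSM1 (-1.95, SE 0.15). Of the genes listed around POLDIP3 and mRNA export, 5 were higher and 1 lower of 6 tested, led by THOC2 (1.55, SE 0.051). Of the agrin receptors, 1 was higher and 1 lower of the 2 tested, with dystroglycan, DAG1, at 1.56 (SE 0.11). Of the band 4.1 family, 3 were higher and 3 lower of 6, led by EPB41L1 (-1.48, SE 0.17).

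In WT IP, 5 of the 6 other band 4.1 genes were called higher than input, as EPB41L4A was, and the other did not pass (30.2% of all genes higher), with a median log2 difference of 1.59. Over IgG, 3 of the 6 were higher in WT IP and none lower (35.2% of all genes higher), and in WT IgG itself 3 were higher than input and 2 lower (24.4 and 36.6% of all genes). In the change of IP over input, 5 of these 6 were called lower and the other did not pass (36.3% of all genes lower), with a median of -1.62 against -0.19 over all genes. In the change over IgG, 2 were higher and 4 lower (34.9 and 25.9% of all genes). For the ATG4 list, in WT IP 3 of 7 were lower than input and none higher (27.3% of all genes lower), and 2 were lower than IgG and none higher (17.8% of all genes lower). In the change over input 5 were higher and 1 lower (31.5 and 36.3% of all genes), and in the change over IgG 2 were higher and 2 lower. Of 14 other reported TDP43 targets tested, 2 were higher and 9 lower in the change over input, with a median of -0.88. The 10 members had 4 higher and 3 lower there, with a median of 0.39. In the change over IgG, 7 of the 14 were higher and 1 lower (34.9 and 25.9% of all genes). Pull-down values of the remaining lists are not given here.

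The transcripts whose mean log2 CPM followed each of the 10 most closely over the 6 groups were LAMB1 for ATG4B (r = 0.976), MOXD1 for GPSM2 (r = 0.999), FAM104B for PFKP (r = 0.996), IPO13 for RANBP1 (r = 0.978) and IQGAP3 for EPB41L4A (r = 0.993). They were PPDPF for AGRN (r = 0.9997), CD55 for POLDIP3 (r = 0.970), MTCP1NB for SORT1 (r = 0.974), PFKM for GRN (r = 0.995) and LOC100287616 for HDAC6 (r = 0.994). These Pearson correlations rest on 6 group means that share libraries and depth, and were the highest of 10140 (for EPB41L4A 10141) genes with a mean of at least 100 counts, so they are a description only.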

How the data were processed

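The 17 acRIP-seq libraries of HEK293T poly(A) RNA were grouped by their titles. The authors built SMART-seq2 libraries, trimmed reads with Trim Galore 0.6.7, aligned them with STAR 2.7.10a and counted uniquely mapped reads per gene with featureCounts 2.0.2. The deposited values are raw counts per gene, not normalized. The strand setting and annotation release are not given in the sources used here. The study's methods name hg19 for the human libraries, and GEO's processing field names a mouse build. Of the 813522 exon ends in the table, 89.7% were found in the GRCh37 annotation GENCODE v44lift37, and 96.4% of introns had GT and AG ends, so GRCh37 was used. Between 81.3 and 95.9% of the counts from 1 to 20 were even, so a count appears to be a mate and not a fragment. No molecular identifiers were used.

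The test was the two-sided quasi-likelihood F test of edgeR 4.0.16 in R 4.3.3 (glmQLFit and glmQLFTest), after filterByExpr (minimum count 10) and TMM. Benjamini-Hochberg adjustment covered all genes tested. Fits held 6 libraries for the inputs, 8 for WT pull-downs, 9 for siTDP43 pull-downs and 17 for the interactions. Calls needed an adjusted p under 0.05, and within a genotype also a fold above 2. The SE is the absolute log2 change divided by the square root of F. A group with at most 3 counts in every library was taken as at the floor. No library duplicated another (chi-square per degree of freedom 3.26 to 9.43 between replicates). The fits were tested on simulated data. Alternatives were DESeq2 1.42.0, its size factors, total count scaling, no filter, a mean of at least 50 counts, the replicate number as a block, counts halved, a lowess trend on exon GC removed (span 0.3), limma 3.58.1 on log2(FPKM + 1), a stricter fold over IgG (above 5), and each library left out in turn.

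The genes named are the 10 members, TARDBP, the most changed gene of each pathway list in the inputs, the gene closest in pattern to each member, and markers. The members and lists were chosen with earlier results of these data known.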

Additional observations from a re-analysis of the deposited data

Results flagged for a closer look

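Each of the following differed between WT and siTDP43 cells by the interaction test over 17 libraries (edgeR, adjusted p under 0.05), on the log2 scale and as siTDP43 minus WT. In the change of IP over input the values were -1.63 for ATG4B, 0.50 for PFKP, 0.45 for RANBP1, -2.56 for EPB41L4A, 0.65 for POLDIP3, 0.86 for SORT1 and -1.76 for HDAC6. In the change of IP over IgG they were -1.91 for ATG4B, -2.79 for PFKP, -1.25 for RANBP1, -1.14 for AGRN, 0.69 for POLDIP3, 2.24 for SORT1, 0.39 for GRN and 1.44 for HDAC6. For GPSM2 the value was 1.68 with siTDP43 IgG set at 3 counts per library, where it had 0 counts, so its size is not secured. PFKP, RANBP1 and HDAC6 took opposite signs by the 2 measures, and the IgG level of each differed between the genotypes, from 9.44 to 95.3 CPM for PFKP, from 372 to 568 CPM for RANBP1 and from 57.9 to 5.14 CPM for HDAC6. With 2 or 3 libraries in a group, no library was tested as an outlier.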

How the results depend on the processing

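Over the alternatives that kept all libraries, 728 of the log2 values of the 10 transcripts and TARDBP kept their direction and their side of the threshold, 20 passed where they had not, 41 no longer passed and 24 changed sign. Leaving out each library in turn, 882 kept both, 7 passed, 23 no longer passed and 4 changed sign. Scaling by total counts in place of TMM moved the median of all genes by 0.10 and 0.13 in WT IP over input and over IgG, by -0.34 and 0.21 in siTDP43 IP, by -0.55 in siTDP43 IgG over input and by -0.29 in the change over input. DESeq2 size factors moved it by -0.21 in the change over IgG. Removing the GC trend moved it by -0.48 in WT IP over IgG, 0.44 in WT IgG over input, -0.63 in siTDP43 IP over IgG and 0.72 in siTDP43 IgG over input, and by 0.27 in the change over input and -0.20 in the change over IgG.

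Counts of the 10 called changed as follows. In input, 2 higher became 0 with total count scaling, a mean of at least 50 counts or limma, and 0 to 2 on leaving out a library. In WT IP, 3 higher than input became 1 with the GC trend removed, 3 higher than IgG became 1, and 2 lower than IgG became 5, or 1 with limma, and 1 to 3 on leaving out a library. In WT IgG, 1 higher became 3 with a mean of at least 50 counts, 2 with the GC trend removed and 0 with limma, and 0 to 3 on leaving out a library. In siTDP43 IP, 2 higher than input became 1 with total count scaling, a mean of at least 50 counts or the GC trend removed, and 0 with limma. The 2 higher than IgG became 1 with a mean of 50 counts or more, 0 with limma, and 2 to 3 on leaving out a library, while 1 lower became 4 with the GC trend removed, 0 with limma and 1 to 2 on leaving out a library. In siTDP43 IgG, 2 higher became 1 with total count scaling or a mean of 50 counts or more, and 0 with limma. In the change over input, 4 higher became 2 with total count scaling or limma. The 2 ac4C(+) in WT became 1 with the GC trend removed or a fold over IgG above 5, and the 0 in siTDP43 became 1 without siTDP43 IgG replicate 2 (0 to 1 over libraries). Leaving out a library also gave 2 to 3 lower in WT IP over input (3 with all libraries) and in WT IgG over input (3), 3 to 4 lower in siTDP43 IgG over input (3), and 4 to 5 higher (5) and 3 to 4 lower (4) in the change over IgG.

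Values that changed sign were, with the GC trend removed, AGRN in WT IP over input (-0.96), WT IP over IgG (-1.17) and siTDP43 IP over input (-0.40), EPB41L4A in siTDP43 IP over input (0.027), POLDIP3 in WT IgG (0.24) and siTDP43 IgG (0.39), GRN in WT IP over IgG (-1.04), siTDP43 IP over IgG (-0.0061) and the change over input (0.45), and HDAC6 in input (0.081) and WT IP over input (-0.41). With total count scaling they were ATG4B (-0.033) and PFKP (-0.047) in input, and ATG4B (-0.37) and SORT1 (-0.37) in siTDP43 IgG. With limma on log2(FPKM + 1), which compresses low values, they were ATG4B (-0.032) and PFKP (-0.052) in input, ATG4B (-0.34) and SORT1 (-0.23) in siTDP43 IgG, EPB41L4A in the change over IgG (-1.05) and AGRN in the change over input (-0.45). With a mean of at least 50 counts they were ATG4B in siTDP43 IP over input (0.0039), PFKP in input (-0.0036) and POLDIP3 in siTDP43 IgG (0.072). Leaving out 1 library, they were ATG4B in siTDP43 IP over input without siTDP43 IP replicate 2 (0.0023, range over libraries -0.22 to 0.0023), PFKP in input without siTDP43 input replicate 1 (-0.054, range -0.054 to 0.10), EPB41L4A in siTDP43 IP over input without siTDP43 IP replicate 1 (0.13, range -0.80 to 0.13) and GRN in the change over input without siTDP43 IP replicate 3 (0.025, range -0.12 to 0.025). The cause of these changes was not tested.

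Residuals of same-numbered libraries correlated between -0.026 and 0.064, so no clear pairing by replicate number was seen. With so few libraries in a group, this cannot exclude that same-numbered libraries came from the same RNA. With the replicate number as a block, GRN in the change over IgG no longer passed (0.34, adjusted p = 0.0558), the 5 higher there became 4, and no other call changed. Depth was least in siTDP43 IgG, where 3 counts correspond to as much as 1.21 CPM.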
